A study of Mus musculus with 14 samples.

Results

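The comparison described here is between macrophages with and without a TFEB transgene after both had been kept in medium holding tumour material. Its members are the arrays whose titles give the genotype (TFEB-tg or TFEB-wt) and the treatment with tumour material, 7 of the 14 arrays and 5 of the 11 replicates of the study. The transgenic group has 2 replicates on 3 arrays and the wild-type group 3 replicates on 4 arrays, because replicate 3 of each was measured on 2 arrays. Levels, means and n count both arrays as 1 replicate, while the fit takes all 14 arrays of the study. Replicate 1 of the transgenic group is not analysed here.

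The cells were macrophages grown for 1 week with M-CSF from marrow of the legs of female C57BL/6 mice aged 8 weeks. Both groups were LysM-Double-Cre, so the controls carry the Cre recombinase too. The lysozyme M promoter that drives it is active in myeloid cells, and the series title gives LysM-Cre as the means of TFEB overexpression. The transgenic group was TFEB transgene+ and the wild-type group TFEB transgene-. For 24 h before RNA isolation both were kept in DMEM to which tumour lysate and serum-free medium conditioned by EO771 mouse mammary tumour cells had been added; cells of the same genotypes in DMEM only, the control medium, formed the other 2 groups of the study. The labels give 3 biological replicates per group, and do not state how many mice lie behind them or how the transgene is built.

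TFEB is a transcription factor of the MiT/TFE family. When the kinase mTORC1 is inactive it enters the nucleus and switches on genes for lysosomal enzymes, the proton pump of the lysosome and autophagy, many of which carry an E-box sequence in their promoters. Macrophages exposed to tumour products commonly take on a mixed state: they make inflammatory cytokines together with arginase and interleukin-10, and they switch on genes of low-oxygen metabolism. The comparison asks what the transgene changes in that state.

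Levels are given as the log2 of the signal over the 75th percentile of the array, so that 0 is a spot at that percentile, and the level of replicate 3 is the mean of its 2 arrays. Differences are log2, transgenic minus wild-type, from a limma fit with a term for the slide, and each SE is that of the log2 difference. Arrays of 1 replicate share a block in that fit, but the estimated correlation of the block was 0.0615, so that repeat arrays entered nearly as separate samples. A gene is called at a Benjamini-Hochberg adjusted p under 0.05. All 3 transgenic arrays lay on slide 2, with 1 of the 4 wild-type arrays, so the difference to that wild-type array is given as the value within slide 2. The fitted difference can depart from the difference of the plain means, since the slide term also uses the arrays in DMEM only.

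The arrays with tumour material resembled each other closely. Pairs of wild-type arrays correlated at 0.988 to 0.994 over all genes, pairs of transgenic arrays at 0.979 to 0.992, and pairs across genotypes at 0.964 to 0.980. On each array 35.5% to 37.4% of spots were bright enough to count as well above background, and 0 were saturated. The wild-type replicate that was measured on both slides moved by a median of 0.14 between them, and 2.03% of its genes moved 2-fold or more. The repeat array of the transgenic replicate 3, in slide column 4, departed from its first array by a median of 0.285, and 7.31% of genes differed 2-fold or more between both, against 6.86% between the genotypes within slide 2.

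Of 15834 genes tested, 725 were called (4.58%), 319 of them higher in transgenic cells (2.01%) and 406 lower (2.56%). At least 2-fold were 188 of those higher and 268 of those lower. Within slide 2 the difference had the same sign for 725 of 725, with a median size of 1.15 against 0.237 over all genes. The arrays of slide 2 are also part of the fit that gave the calls, so this is not a separate check. The replicates were separated by genotype for 719 of the 725 and for 48% of all genes. The number called fell when each sample was counted once. With the arrays of each replicate averaged before the fit it was 180, of which 170 were among the 725, and 39 of the 87 named calls remained. Without the 3 repeat arrays it was 214, 120 of them among the 725, and 27 named calls remained. The number also moved with single replicates: it was 148 without wild-type replicate 3 and 130 without transgenic replicate 3, and 12 in a fit to slide 2 alone. Without transgenic replicates 1 or 2 of the DMEM-only group it was 2093 and 1226, and without wild-type replicate 1 it was 483. Under each of these 8 settings all 725 kept their sign, though each reuses arrays that gave the calls. In these bulk samples fewer cells of a type and less RNA per cell cannot be told apart.

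**Figure D1:**
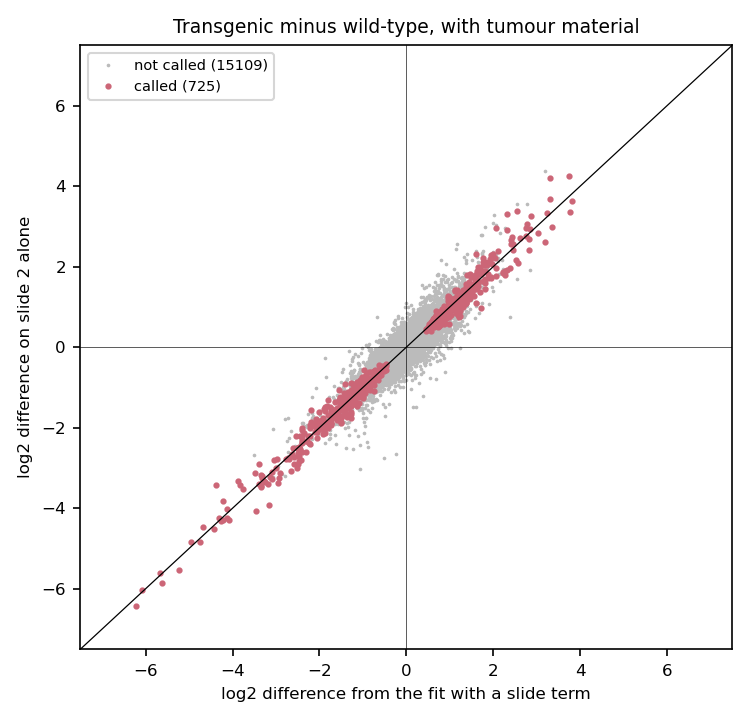
Each point is 1 of 15834 genes, with the fitted log2 difference between transgenic and wild-type macrophages on the x axis and the difference on slide 2 alone on the y axis; the 725 called genes are in red and the line marks equal values. All 725 called genes lie on the same side of 0 on both axes, which share the arrays of slide 2.

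The targeted gene came first. Tfeb stood at −0.71, −0.69 and −0.60 in wild-type replicates 1 to 3 and at 0.011 and −0.12 in transgenic replicates 2 and 3. Both transgenic replicates lay above all wild-type ones. The difference was 0.69 (SE 0.16, adjusted p = 0.0267), a 1.62-fold higher level, and 0.52 within slide 2. In DMEM only the difference was 0.31 (SE 0.13, adjusted p = 0.167) and did not pass. This call is among the weaker ones. It was lost with the arrays of a replicate averaged, kept in 5 of the 11 fits that leave out 1 replicate and lost without wild-type control replicate 3 and without any of wild-type replicates 1, 2 or 3 and transgenic replicates 2 or 3 (adjusted p up to 0.213). The sources used here do not say if the probe matches the transgene's own transcript.

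Other members of the family and its regulators were not called. Of 18 tested genes of that list Tfeb was the only one past the threshold (5.56%, against 4.58% of all genes). At this list size the count is near the background. The median was −0.086 against −0.011 over all genes tested. Mitf, a relative of TFEB, differed by 0.30 (SE 0.10, adjusted p = 0.145), the relative Tfe3 by 0.14 (SE 0.37, adjusted p = 0.88) and Tfec by 0.032 (SE 0.17, adjusted p = 0.949). The folliculin gene Flcn, which acts in the nutrient control of TFEB, differed by 0.056 (SE 0.14, adjusted p = 0.874).

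The lysosomal genes as a list stayed near the median of all genes, and few were called, as of all genes (4.58%). Of 50 tested hydrolases and membrane proteins 0 were called higher and 1 lower, of 12 cathepsins and legumain 1 higher, of 18 proton pump subunits 1 higher, and of 35 autophagy genes 1 lower. Their medians were 0.10, −0.048, 0.065 and 0.045. Genes often read as TFEB targets had small differences. Gpnmb, a lysosomal glycoprotein of lipid-loaded macrophages, differed by 0.47 (SE 0.14, adjusted p = 0.0864). The autophagy receptor Sqstm1 differed by 0.23 (SE 0.22, adjusted p = 0.635) and the lysosomal calcium channel Mcoln1 by −0.19 (SE 0.18, adjusted p = 0.615). Gpnmb was called in 4 of 27 alternative settings, the arrays with tumour material alone among them, and Sqstm1 and Mcoln1 in 0.

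The exceptions were single genes. Hgsnat, the acetyltransferase that takes part in heparan sulfate breakdown, stood at 6.11, 6.13 and 6.25 in wild-type and 3.5 and 3.62 in transgenic replicates. The groups lay far apart, and Hgsnat was 5.45-fold lower in transgenic cells (SE 0.22, adjusted p = 0.000121), a call kept in all 11 fits without 1 replicate. It was also lower in DMEM only, at −1.85 (SE 0.18, adjusted p = 0.000159). Atp6v0d2, a pump subunit of macrophages and osteoclasts, stood at 3.32, 3.37 and 2.77 in wild-type and 4.81 and 4.69 in transgenic replicates. It was higher in transgenic cells without overlap, by 1.69 (SE 0.30, adjusted p = 0.00726). Ctsk, the collagen-cleaving cathepsin K, was higher by 1.5 (SE 0.33, adjusted p = 0.0232), and Mcoln3, a calcium channel of endosomes and lysosomes, was at least 2.44-fold higher (adjusted p = 0.00426). Mcoln3 was dim on all 4 wild-type arrays. Where every array of 1 of the 2 groups with tumour material is dim, only such a lower bound is given for the difference with tumour material: the numerator is the mean of the bright group, and the denominator is, per array of the dim group, whichever is higher of the gene's own signal and the lowest signal that counted as well above background. The calls for Atp6v0d2, Ctsk and Mcoln3 were lost without wild-type replicate 3 and without transgenic replicate 3 (adjusted p up to 0.212, 0.27 and 0.153), and that for Ctsk also without wild-type replicate 1 or transgenic replicate 2. With averaged arrays the call for Hgsnat was kept and those for the other 3 were lost.

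The E-box that TFEB recognises was searched for in promoters, taking the 250 bases before the RefSeq gene start (GRCm38.p6) and both strands. The core CACGTG lay in 10.2% of the 8847 tested genes with a promoter in that table, in 8% of 200 genes called higher, in 6.55% of 229 called lower and in 11 of 42 lysosomal genes. A match is a description of the letters only.

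Arg1 had the largest fall among the named genes that were above background on all 7 arrays. It encodes arginase 1, which removes arginine and marks alternatively activated and tumour-exposed macrophages. Its level was 6.62, 6.62 and 6.49 in the wild-type replicates and 0.87 and 0.50 in the transgenic ones. The transgenic values were well above background on every array yet far below those of the wild-type. Arg1 was 50.7-fold lower, a difference of −5.66 (SE 0.22, adjusted p = 9.38e-08) and of −5.62 within slide 2. In DMEM only it was dim on every array of both genotypes. The arginine importer Slc7a2 was lower as well, at −1.74 (SE 0.25, adjusted p = 0.00213), a call lost without wild-type replicate 3, without transgenic replicate 3 and with averaged arrays. Of 16 genes of arginine and polyamine metabolism these were the 2 called, both lower (12.5%, against 2.56% of all genes), and the list's median was 0.022.

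Il10 and its relative Il19 were lower in the transgenic cells. Il10, the cytokine that restrains inflammation, stood at 3.08, 3.08 and 3.46 in wild-type and 0.40 and −0.037 in transgenic replicates. With no overlap between the groups it was 9.7-fold lower (SE 0.24, adjusted p = 3.95e-05). Il19 was well above background on all 4 wild-type arrays, at 0.76, 0.77 and 1.18, and on none of the 3 transgenic ones. It was at least 15.4-fold lower (adjusted p = 0.000244), and both of its probes fell. The calls for Arg1, Il10 and Il19 were kept in all 11 fits without 1 replicate and with averaged arrays.

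The other cytokines and chemokines that were called were lower too. Of 34 tested members of that list 7 were called lower and 0 higher, where 2.56% of all genes were called lower, and the median was −0.44. Il6, the fever and acute phase cytokine, stood at 5.75, 5.72 and 6.00 in wild-type and 3.22 and 3.07 in transgenic replicates. Every transgenic value lay below every wild-type value, and Il6 was 6.56-fold lower (SE 0.19, adjusted p = 3.93e-05; −2.76 within slide 2). Csf3, the granulocyte growth factor G-CSF, fell by 1.79 (SE 0.22, adjusted p = 0.000711). The neutrophil-attracting chemokines Cxcl5 and Cxcl1 were lower, at −4.21 (SE 0.84, adjusted p = 0.0138) and −1.5 (SE 0.28, adjusted p = 0.0102), and Cxcl14, which attracts monocytes, at −1.39 (SE 0.21, adjusted p = 0.00253). Without wild-type replicate 3 the list had 4 members called lower and without transgenic replicate 3 it had 5; Cxcl5 and Cxcl1 lost their calls in both cases and Cxcl14 in the former. With averaged arrays 5 were called lower, and Cxcl5 and Cxcl1 lost their calls again.

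Markers of 2 other cell types had lower sums beside these genes. In multiples of the array's 75th percentile, neutrophil markers summed to 871 to 1158 in wild-type and 404 to 553 in transgenic arrays. Most of that sum was Lcn2, a secreted iron-binding protein that macrophages also make, which did not pass at −1.40 (SE 0.63, adjusted p = 0.265). Of the 14 tested neutrophil markers 8 lay below 0 and 6 above, with a median of −0.039, and 2 were called lower (14.3%, against 2.56% of all genes). Fibroblast markers summed to 54.1 to 63.4 and 16.0 to 16.1, and 1 of 11 tested was called, lower (9.09%, against 2.56% of all genes). Their part in the result was not tested.

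Cytokines that are central to the inflammatory response did not all follow. Tnf stood at 6.25, 6.27 and 6.47 in wild-type and 6.19 and 6.17 in transgenic replicates, a difference of −0.27 (SE 0.22, adjusted p = 0.56). Il1b differed by −0.67 (SE 0.39, adjusted p = 0.393), Ccl2 by −0.72 (SE 0.99, adjusted p = 0.745) and Cxcl10 by −0.093 (SE 0.62, adjusted p = 0.959). None of these passed. The arrays with tumour material lay closer for Ccl2 than its fitted value, at 8.52, 8.47, 8.48 and 8.44 in wild-type and 8.31, 8.24 and 8.46 in transgenic cells. The fit also uses the arrays in DMEM only, where Ccl2 stood at 1.57, 6.16 and 6.01 in transgenic replicates 1 to 3. Nos2, the inducible nitric oxide synthase that competes with arginase for arginine, stood at 6.76, 6.71 and 6.92 in wild-type and 5.74 and 5.86 in transgenic replicates. The groups did not overlap, but the difference of −0.94 (SE 0.39, adjusted p = 0.22) did not pass. Nos2 was called in 4 of 27 alternative settings and Il1b in 2 of 26. For both these included the arrays with tumour material alone and the fit without transgenic control replicate 1. Tnf, Ccl2 and Cxcl10 were called in 0 of 27.

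Among the markers of alternative activation the calls were those for Arg1 and Il10. These 2 of 21 tested were called lower (9.52%, against 2.56% of all genes), and the median was −0.13. The mannose receptor Mrc1 stood at 3.60, 3.63 and 3.29 in wild-type and 4.38 and 4.32 in transgenic replicates, a difference of 0.88 (SE 0.28, adjusted p = 0.11). The chitinase-like Chil3 differed by −0.58 (SE 0.48, adjusted p = 0.566), with overlapping replicates. Il4ra, the receptor chain for interleukins 4 and 13, differed by −0.55 (SE 0.28, adjusted p = 0.33); none of the 3 passed. Retnla and Cd163 were too dim to be tested.

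Inflammatory effectors and regulators of NF-kB had 5 of 37 tested members called lower and 1 higher, where 2.56% and 2.01% of all genes were called lower and higher, with a median of −0.31. Lower were the prostaglandin synthase Ptgs2 at −1.73 (SE 0.25, adjusted p = 0.00213), the amplifying receptor Trem1 at −1.48 (SE 0.33, adjusted p = 0.027), the NF-kB cofactor Nfkbiz at −1.25 (SE 0.17, adjusted p = 0.0014), the lipopolysaccharide co-receptor Cd14 at −1.18 (SE 0.17, adjusted p = 0.00247) and the cytokine feedback inhibitor Socs1 at −0.60 (SE 0.13, adjusted p = 0.021). The adhesion molecule Vcam1 was higher, by 1.27 (SE 0.20, adjusted p = 0.00399). The inflammasome sensor Nlrp3 at −0.91 (SE 0.29, adjusted p = 0.108) and the feedback inhibitor Socs3 at −1.10 (SE 0.45, adjusted p = 0.214) did not pass. All 6 calls were lost without wild-type replicate 3, without transgenic replicate 3 and with averaged arrays, and those for Trem1 and Socs1 also without wild-type replicate 1.

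Prostaglandin synthesis had 3 of 19 tested genes called, all lower (15.8%, against 2.56% of all genes). Beside Ptgs2 these were the phospholipase Pla2g4a, which releases arachidonic acid, at −0.75 (SE 0.14, adjusted p = 0.0097), and the carbonyl reductase Cbr2 at −2.40 (SE 0.39, adjusted p = 0.00425). Among 23 immediate early genes 2 were called lower and 1 higher (13%, against 4.58% of all genes). Dusp2 and Egr1 were lower, at −2.20 (SE 0.45, adjusted p = 0.0167) and −1.86 (SE 0.27, adjusted p = 0.00228), while Egr2 was higher, by 1.94 (SE 0.37, adjusted p = 0.0104). The related factors Egr1 and Egr2 therefore lay on opposite sides: Egr1 at 0.39, 0.33 and 0.73 in wild-type and −1.77 and −1.22 in transgenic replicates, Egr2 at 1.88, 1.04 and 1.17 in wild-type and 2.94 and 2.91 in transgenic replicates. These calls, too, were lost without wild-type replicate 3, and except for Egr1 without transgenic replicate 3 and with averaged arrays.

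**Figure D2:**
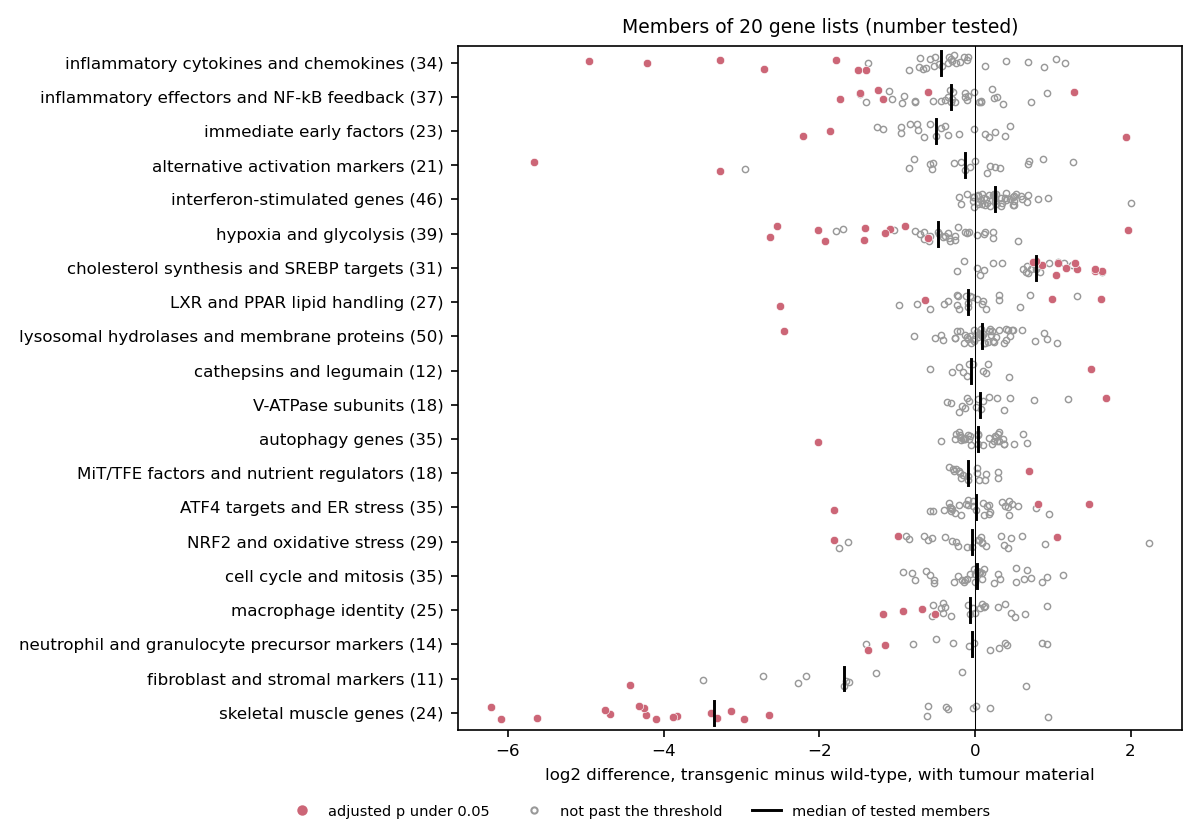
Each point is 1 tested gene of a list named on the y axis, with the number tested in brackets; the x axis is the fitted log2 difference, transgenic minus wild-type, red points have an adjusted p under 0.05 and the black bar is the list's median. Cholesterol genes lie to the right of 0 with a median of 0.79, hypoxia genes to the left with −0.47, and the skeletal muscle list, chosen after its values were seen, reaches −6.22.

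Part of the genes of the response to low oxygen and of glycolysis were lower in transgenic cells. Of 39 tested, 10 were called lower and 1 higher, where 2.56% and 2.01% of all genes were called lower and higher. The median was −0.47 (−0.49 within slide 2), and 32 lay below 0. The factor HIF-1 binds the sequence ACGTG near such genes. It was found on either strand within 250 bases before the gene start in 7 of the 10 genes called lower, in 14 of 28 other members of the list with a promoter, in 25.2% of the tested genes and in 18.5% of all 27025 promoters of the RefSeq table (GRCm38.p6). The stretches of 4 of the 7 are printed 5′ to 3′ along each gene, the 3 with the largest falls and the lactate exporter Slc16a3, to show where the letters lie; capitals mark ACGTG or, read from the other strand, CACGT, and both together where they overlap.

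Egln3 (chr12:54204060-54204124, minus strand): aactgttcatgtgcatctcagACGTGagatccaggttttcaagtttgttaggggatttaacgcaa
Ak4 (chr4:101419460-101419524, plus strand): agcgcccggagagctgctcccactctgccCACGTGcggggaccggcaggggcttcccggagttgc
Bnip3 (chr7:138909579-138909643, minus strand): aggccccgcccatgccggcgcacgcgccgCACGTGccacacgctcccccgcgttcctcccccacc
Slc16a3 (chr11:120949002-120949066, plus strand): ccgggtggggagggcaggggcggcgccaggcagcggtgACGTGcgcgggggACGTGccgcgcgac

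Egln3, the prolyl hydroxylase that tags HIF for breakdown, led the list. It stood at 2.41, 2.52 and 2.77 in the wild-type replicates and at 0.23 and 0.073 in the transgenic ones. The transgenic cells lay below all wild-type replicates, 6.19-fold lower (SE 0.20, adjusted p = 4.36e-05; −2.65 within slide 2), and both probes fell by a like amount. Ak4, a mitochondrial adenylate kinase, stood at 3.79, 3.87 and 3.91 in wild-type and 2.13 and 1.33 in transgenic replicates. It was 5.81-fold lower (SE 0.36, adjusted p = 0.00213), with the transgenic replicates further from each other than the wild-type ones. Bnip3, a receptor for removal of mitochondria, stood at 7.52, 7.76 and 7.58 in wild-type and 6.03 and 5.41 in transgenic replicates. It was 4.04-fold lower (SE 0.26, adjusted p = 0.00122) and is the member of the autophagy list named above as lower.

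Metabolic enzymes and carriers of the list moved less. The lactate exporter Slc16a3 differed by −1.43 (SE 0.27, adjusted p = 0.01), the cytokine Mif at −1.41 (SE 0.23, adjusted p = 0.00426), the protein of unknown role Ankrd37 at −1.92 (SE 0.30, adjusted p = 0.00339) and the glycolytic kinase Pgk1 at −0.90 (SE 0.17, adjusted p = 0.00942). Pfkl at −1.09, the oxidase Ero1a at −1.15 and the histone demethylase Kdm3a at −0.60 completed the 10. Eno2, a second form of the glycolytic enolase, went the other way: it stood at 1.30, 1.36 and 1.29 in wild-type and 3.5 and 3.45 in transgenic replicates, higher by 1.97 (SE 0.23, adjusted p = 0.000585). Of the rest of glycolysis, Ldha at −0.11, Aldoa at −0.26 and Hk2 at −0.081 did not pass, nor did Hif1a itself at −0.59 (SE 0.47, adjusted p = 0.55) and Vegfa at −0.13 (SE 0.69, adjusted p = 0.948). Of the 10 called lower, 3 remained called without wild-type replicate 3 and 2 without transgenic replicate 3. The calls for Egln3, Bnip3 and Eno2 were kept in all 11 fits without 1 replicate. With averaged arrays those for Egln3, Ak4, Bnip3, Mif and Eno2 were kept, and the list had 4 members called lower and 1 higher.

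Genes of cholesterol synthesis formed the counterpart. Of 31 tested genes of the sterol pathway and other targets of SREBP, the factor that senses low sterols, 11 were called higher and 0 lower, where 2.01% of all genes were called higher. Their median was 0.79 (0.90 within slide 2), and 29 lay above 0. Tumour material lowered this list in wild-type cells, with a median of −1.27.

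Dhcr7 encodes a reductase of the last steps. It stood at −0.32, −0.36 and −0.46 in wild-type and 0.90 and 0.80 in transgenic replicates. The replicates of each genotype lay close together, and Dhcr7 was 2.43-fold higher (SE 0.19, adjusted p = 0.00234; 1.26 within slide 2). In DMEM only its wild-type replicates stood at 1.82, 1.66 and 1.86, above the transgenic level reached here. Upstream in the pathway, the isomerase gene Idi1 stood at −0.11, 0.22 and 0.30 in wild-type and 1.85 and 1.87 in transgenic replicates. It was higher by 1.54 (SE 0.32, adjusted p = 0.0178) without overlap. The farnesyl diphosphate synthase Fdps was higher by 1.31 (SE 0.28, adjusted p = 0.0207) and the squalene synthase Fdft1 by 0.87 (adjusted p = 0.0345).

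Transport and fatty acid genes under the same control were among them. The sterol carrier Stard4 stood at −1.37, −1.39 and −1.64 in wild-type and −0.35 and −0.44 in transgenic replicates. No values overlapped, and Stard4 was 2.26-fold higher (SE 0.24, adjusted p = 0.0178). The fatty acid enzymes Acaca and Elovl6 were higher by 0.75 and 1.06, and the sterol enzymes Tm7sf2 and Sc5d by 1.04 and 0.79. Hmgcs1 at 0.78 and the sterol-sensing factor Srebf2 at 1.15 did not pass. Without wild-type replicate 3 the list had 1 member called higher, and without transgenic replicate 3 it had 2, with medians of 0.71 and 0.95; in a fit to slide 2 alone it had 0, with a median of 0.89. With averaged arrays 2 were called higher, with a median of 0.72. Dhcr7, Idi1, Fdps and Stard4 each lost the call when either of these replicates was left out, and Idi1, Fdps and Stard4, but not Dhcr7, lost it with averaged arrays.

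**Figure D3:**
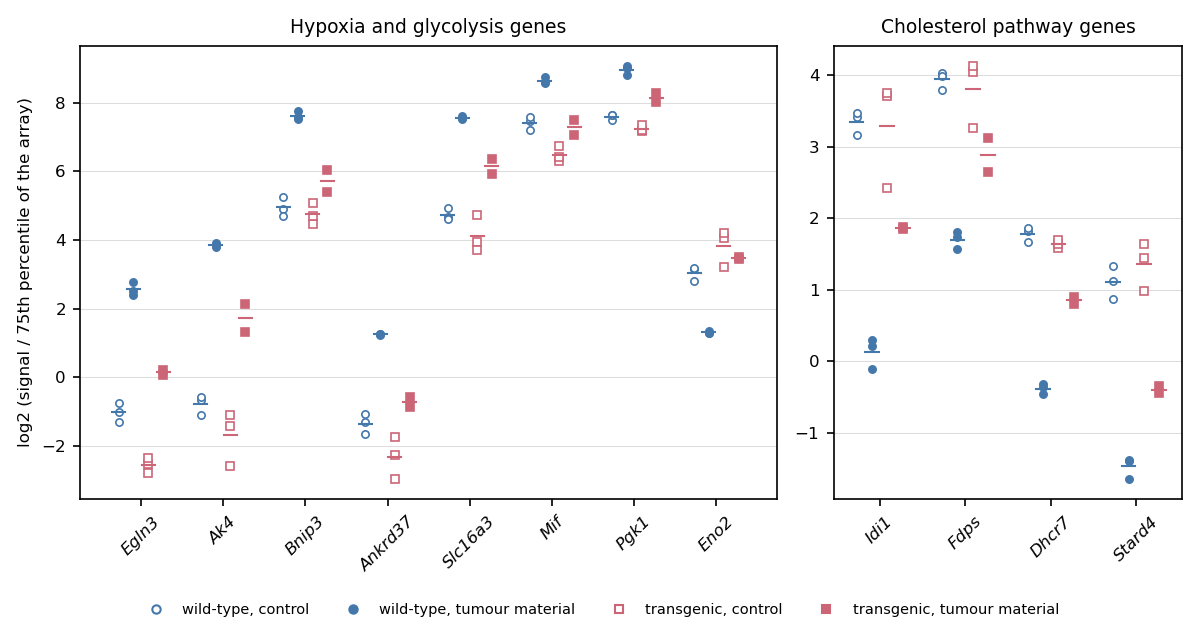
Points are replicates of 4 groups and bars their means, as log2 signal relative to the 75th percentile, for 8 genes of hypoxia and glycolysis (left) and 4 of the cholesterol pathway (right). For Egln3, Ak4, Bnip3 and Slc16a3 the transgenic replicates with tumour material lie below the wild-type ones, and for the 4 genes on the right above them.

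Lipid handling under PPAR and LXR split. Fabp4, a fatty acid carrier of macrophages and fat cells, stood at 4.98, 4.89 and 4.88 in wild-type and 6.50 and 6.63 in transgenic replicates. It was 3.07-fold higher (SE 0.17, adjusted p = 0.000335), without overlap. Angptl4, an inhibitor of lipoprotein lipase, stood at 1.17, 1.03 and 0.98 in wild-type and −1.95 and −1.40 in transgenic replicates, and was 5.66-fold lower (SE 0.23, adjusted p = 0.000147). The lipase Lpl itself was higher by 1.0 (SE 0.23, adjusted p = 0.0286), and Ppard was lower, at −0.64 (SE 0.16, adjusted p = 0.0499). Of 27 tested genes these 4 were called (14.8%, against 4.58% of all genes); Pparg at 1.31 (SE 0.50, adjusted p = 0.183) did not pass though its replicates were separated. Fabp4 and Angptl4 were called in all 11 fits without 1 replicate, Lpl in 7 and Ppard in 5 (adjusted p up to 0.443 and 0.535 without 1 of the others, wild-type replicate 3 and transgenic replicate 3 among them). Lpl and Ppard also lost their calls with averaged arrays.

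Amino acid, redox and iron genes gave single calls in both directions. Phgdh, the first enzyme of serine synthesis, stood at 0.81, 1.03 and 1.0 in wild-type and 2.60 and 2.34 in transgenic replicates, higher by 1.47 (SE 0.19, adjusted p = 0.00122). Chac1, which breaks down glutathione, was higher by 0.81 (SE 0.14, adjusted p = 0.00668). The cystine importer Slc7a11 was lower, at −1.81 (SE 0.28, adjusted p = 0.00324) and haem oxygenase Hmox1 at −0.99 (SE 0.14, adjusted p = 0.00165). The iron exporter Slc40a1 was higher, by 1.06 (SE 0.14, adjusted p = 0.00144). Of 35 tested genes of the ATF4 and ER stress list 2 were called higher and 1 lower, and of 29 genes of NRF2 and oxidative stress 1 higher and 2 lower (8.57% and 10.3% called, against 4.58% of all genes). Phgdh and Slc40a1 were called in all 11 fits without 1 replicate, Chac1 and Hmox1 in 10, each lost without wild-type replicate 3, and Slc7a11 in 9, lost there and without transgenic replicate 3. With averaged arrays Chac1, Hmox1 and Slc7a11 lost their calls.

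Genes that act on the matrix outside the cell also split. Timp2, an inhibitor of metalloproteinases, stood at 6.35, 6.05 and 6.18 in wild-type and 7.90 and 7.70 in transgenic replicates, higher by 1.65 (SE 0.22, adjusted p = 0.00139). It was called in all 11 fits without 1 replicate and with averaged arrays. Osteopontin, Spp1, was higher by 1.15 (SE 0.24, adjusted p = 0.0181) and the proteoglycan versican, Vcan, lower, at −1.34 (SE 0.27, adjusted p = 0.0147), and both of these calls were lost without wild-type replicate 3, without transgenic replicate 3 and with averaged arrays. Of 25 tested genes 2 were called higher and 2 lower (16%, against 4.58% of all genes).

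The largest rises by the naming rule included enzymes, receptors and secreted proteins. Dio2, the deiodinase that activates thyroid hormone, stood at 0.70, 0.71 and 0.26 in wild-type and 4.04 and 4.37 in transgenic replicates. It was 13.4-fold higher (SE 0.58, adjusted p = 0.00333; 4.25 within slide 2). Gpr162, an orphan receptor, stood at 1.72, 1.61 and 1.99 in wild-type and 5.23 and 5.38 in transgenic replicates, 9.41-fold higher (SE 0.39, adjusted p = 0.000667).

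Htra1, a secreted serine protease, was higher by 2.87 (SE 0.30, adjusted p = 0.000252), Tmem178 by 3.31 (SE 0.81, adjusted p = 0.0403) and Rpl39l, a ribosomal protein variant, by 2.85 (SE 0.72, adjusted p = 0.0464). Cdkn1c, an inhibitor of the cell cycle, was dim on all wild-type arrays and at least 7.56-fold higher (adjusted p = 0.0193), the acute phase gene Orm2 at least 6.53-fold (adjusted p = 0.000168) and Pcp4l1 at least 4.04-fold (adjusted p = 0.0413). Gpr162 and Cst7 were called in all 11 fits without 1 replicate. Tmem178, Rpl39l and Pcp4l1 were called in 3 of 11, those without a transgenic control replicate, and Dio2, Cdkn1c and Orm2 lost their calls without transgenic replicate 3 (adjusted p up to 0.12, 0.383 and 0.0689), Dio2 and Cdkn1c also without wild-type replicate 3, as did Htra1 without transgenic replicate 3 (adjusted p = 0.128). With averaged arrays Dio2, Tmem178, Rpl39l, Cdkn1c and Pcp4l1 lost their calls, and Gpr162, Htra1, Orm2 and Cst7 kept theirs.

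**Figure D4:**
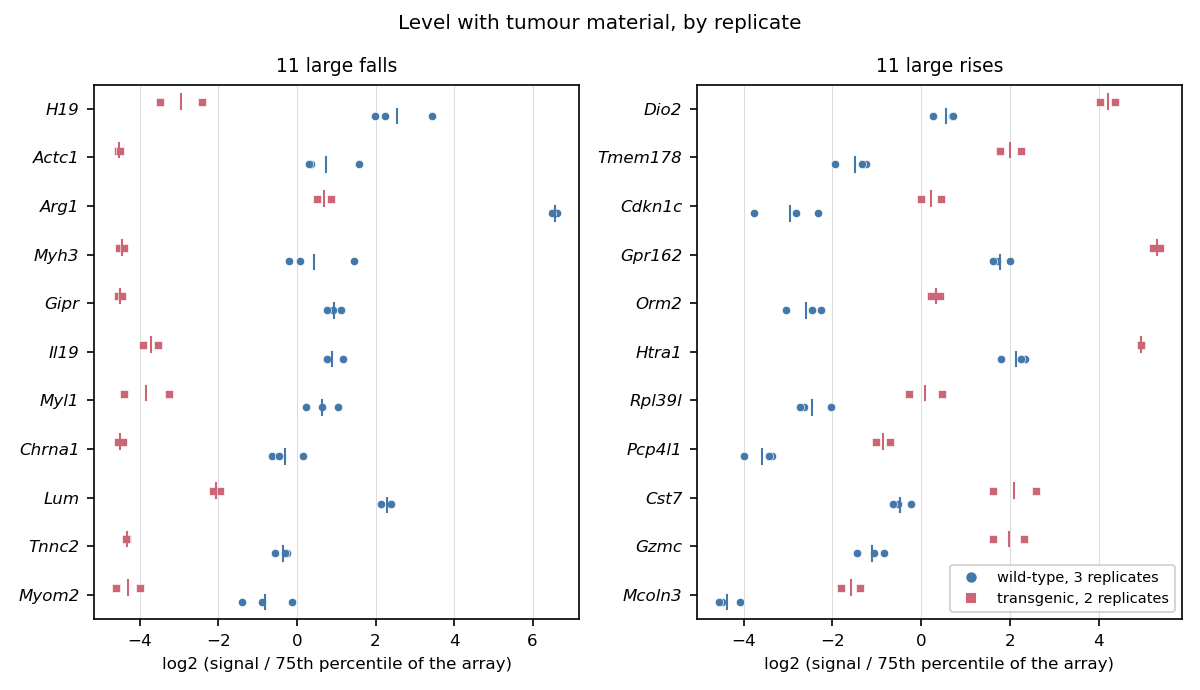
Each row is 1 gene with its 3 wild-type replicates as circles and 2 transgenic replicates as squares, the short bars are group means and the x axis is log2 signal relative to the 75th percentile; 11 of the 12 largest falls are on the left and 11 of the 12 largest rises on the right. Levels of groups that were dim on every array are drawn as measured. The naming rule took only genes whose replicates are separated by genotype, as those of 48% of all genes are, so every row is separated. Arg1 lies at 6.62, 6.62 and 6.49 against 0.87 and 0.50.

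Protease inhibitors of the cystatin family moved in opposite directions. These genes and the granzymes were gathered after their values were seen, so their counts are descriptive. Cst7, which encodes cystatin F, an inhibitor of lysosomal cathepsins in immune cells, stood at −0.52, −0.64 and −0.24 in wild-type and 1.62 and 2.58 in transgenic replicates. It was 7.1-fold higher (SE 0.29, adjusted p = 0.000252). The stefin Csta2, an inhibitor of cysteine proteases in the cytosol, stood at 7.5, 7.47 and 7.82 in wild-type and 5.47 and 5.06 in transgenic replicates, and was 5.47-fold lower (SE 0.30, adjusted p = 0.000717). Stfa3 was lower too, at −2.51 (SE 0.41, adjusted p = 0.00424), and the other 8 tested members, at −1.35 (Stfa2l1) to 0.27 (Cstb), did not pass. Stfa3 lost its call with averaged arrays. The stefin genes are near-identical copies, and their probes may share signal.

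Of 10 genes for granzymes, proteases of cytotoxic granules, and perforin, 3 were bright enough to be tested, and 2 of these were called, both higher (66.7%, against 2.01% of all genes). Gzmc stood at −0.85, −1.06 and −1.45 in wild-type and 1.63 and 2.32 in transgenic replicates, Gzmb at −1.91, −1.92 and −1.83 in wild-type and 0.11 and 1.22 in transgenic replicates. The groups did not overlap in either, with differences of 2.78 (SE 0.57, adjusted p = 0.0171) and 2.42 (SE 0.46, adjusted p = 0.0112). Gzma was dim on every wild-type array, so that no size is given, and it did not pass (adjusted p = 0.177). The calls for Gzmc, Gzmb and Lck were lost without wild-type replicate 3, without transgenic replicate 3 and with averaged arrays. Of 5 tested markers of T and NK cells, a list that also holds Gzma, 1 was called higher (20%, against 2.01% of all genes), and the median was 0.54. This was Lck, a kinase of T cells, higher by 1.61 (SE 0.27, adjusted p = 0.0057). The summed signal of 13 such genes, Gzma among them, in multiples of the array's 75th percentile, ran from 29.6 to 32.2 in wild-type and from 37.9 to 39.4 in transgenic arrays. All 5 tested markers lay above 0. Cd3e, Cd4, Lck and Nkg7 were above background on all arrays of both genotypes. The markers Cd3d, Cd3g, Cd8a, Cd8b1, Zap70, Klrb1c, Ncr1 and Tcf7 were dim in both. Their part in the result was not tested.

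Several of the largest falls were of muscle transcripts. H19, a long noncoding RNA of growing muscle and other developing tissues, stood at 2.25, 1.98 and 3.44 in wild-type and −3.48 and −2.41 in transgenic replicates, and 1 of the 3 transgenic arrays measured it above background. It was lower, at −6.22 (SE 0.58, adjusted p = 0.000159). The sarcomere genes Actc1, Myh3, Myl1, Tnnc2 and Myom2 and the muscle acetylcholine receptor Chrna1 were above background on all 4 wild-type arrays and on none of the 3 transgenic ones. They were at least 13.7-fold, 11.2-fold, 12.4-fold, 6.37-fold, 4.11-fold and 6.64-fold lower (adjusted p from 4.16e-05 for Myh3 to 0.00138 for Myom2). Myog, the factor that drives muscle differentiation, was measured on 3 of 4 wild-type arrays and on none of the transgenic ones, at least 1.85-fold lower (adjusted p = 0.00523). Of these, Tnnc2 lost its call without transgenic replicate 3, and Myog there and without wild-type replicate 3.

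A list of 51 skeletal muscle genes, gathered after these values were seen, had 24 tested members, of which 16 were called lower (66.7%, against 2.56% of all genes). Since the list was gathered from these values, its count is descriptive. On all 4 wild-type arrays 20 of the 51 were above background, and on all 3 transgenic arrays 6 were; Myod1, Pax7, Des, Ckm and Ttn were dim in both. The summed signal ran from 34.4 to 52.8 times the array's 75th percentile in wild-type and from 21.0 to 21.3 in transgenic arrays. Wild-type replicate 3 was the highest for H19 and Actc1. The muscle genes were also measured without tumour material: H19 stood at 1.90, 2.24 and 2.19 in DMEM only, where transgenic replicates stood at −1.68, −0.88 and 0.50, a difference of −2.90 (SE 0.49, adjusted p = 0.00362). Without wild-type replicate 3 the list had 13 members called lower and without transgenic replicate 3 it had 11, and with averaged arrays 14. With normexp background correction its median was −0.83 against −3.36, and with dim genes at their bound −1.76.

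Among stromal transcripts the call was for 1 gene. Lum, the proteoglycan lumican of fibroblasts, stood at 2.13, 2.36 and 2.39 in wild-type and −1.97 and −2.14 in transgenic replicates, a difference of −4.43 (SE 0.16, adjusted p = 9.38e-08) with 2 of 3 transgenic arrays above background. It was called in all 11 fits without 1 replicate. Of 11 tested fibroblast markers Lum was the only one called; the median was −1.68, with Col3a1 at −3.5, Dcn at −2.72 and Col1a2 at −2.17 (adjusted p = 0.153, 0.263 and 0.415). Of all 14 on the list, Pdgfra and Postn were dim in both. Among the largest falls was also Gipr, the receptor of an intestinal hormone, at least 15.7-fold lower (adjusted p = 1.3e-05).

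Both groups carried the transcripts of macrophages. Of 27 identity genes 25 were above background on all arrays of each genotype, and their summed signal ran from 4184 to 4403 in wild-type and from 3754 to 3817 in transgenic arrays. Csf1r, the M-CSF receptor, stood at 8.54, 8.61 and 8.50 in wild-type and 8.47 and 8.53 in transgenic replicates, a difference of 0.066 (SE 0.13, adjusted p = 0.838), and Cd68 differed by 0.13 (SE 0.22, adjusted p = 0.814). Adgre1, an adhesion receptor that marks macrophages, differed by −0.56 (SE 0.15, adjusted p = 0.0541). Of 25 tested, 4 were called lower (16%, against 2.56% of all genes), 0 of them with averaged arrays: Cd14, Itgam at −0.92 (SE 0.23, adjusted p = 0.0469), the complement gene C1qa at −0.68 (SE 0.16, adjusted p = 0.0299) and the myeloid factor Spi1 at −0.51 (SE 0.12, adjusted p = 0.0331). The 3 probes of Itgam gave differences of group means from −1.24 to 0.50, and the calls for Itgam, C1qa and Spi1 were kept in 3, 6 and 5 of 11 fits without 1 replicate, and lost, among others, without wild-type replicates 1, 2 or 3 or transgenic replicate 3.

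Other cell types were followed by their markers. The 2 neutrophil markers called lower were S100a9 at −1.37 (SE 0.33, adjusted p = 0.0373) and S100a8 at −1.15 (SE 0.25, adjusted p = 0.0237). Both, with Camp, Mpo, Elane, Ctsg, Mmp8, Cebpe, Lcn2 and Csf3r, were above background on all arrays of both genotypes. Ngp and Retnlg were dim in both. Of 14 epithelial and mammary tumour markers Lcn2 alone was above background on all arrays, their sums of 677 to 946 and 271 to 395 hold the same Lcn2 signal as the neutrophil sums, and Epcam, Krt8 and Krt18 were dim in both. Osteoclast genes summed to 398 to 425 and 563 to 632, with Ctsk and Atp6v0d2 called higher and Tnfrsf11a, the receptor RANK, lower, at −1.15 (SE 0.20, adjusted p = 0.00681). Of the 10 tested osteoclast genes 6 lay below 0 and 4 above, with a median of −0.077, and 30% were called, against 4.58% of all genes. Endothelial Eng was higher by 0.64 (SE 0.14, adjusted p = 0.0242), and the globin gene Hba-a2 was lower, at −1.67 (SE 0.21, adjusted p = 0.000943). Eng was the 1 called of 4 tested endothelial markers (25%, against 2.01% of all genes called higher), with a median of 0.039. Hba-a2 was the 1 called of 3 tested erythroid markers (33.3%, against 2.56% of all genes called lower), with a median of −0.24. Of 8 B cell markers and of 10 mast cell markers 7 and 5 were dim in both. The calls for S100a8, S100a9, Tnfrsf11a and Eng were lost without wild-type replicate 3 and without transgenic replicate 3, and with averaged arrays except for Tnfrsf11a, while that for Hba-a2 was kept in all of these fits. The part of these cells in the differences was not tested.

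Interferon, cell cycle and antigen presentation genes had 0%, 0% and 4.55% of members called, against 4.58% of all genes, so that at these list sizes the counts are near the background. Of 46 interferon-stimulated genes limma called 0, with a median of 0.26, 39 above 0, and values from −0.21 (Irf7) to 2.01 (Slfn5, adjusted p = 0.274). Over the alternative settings between 0 and 3 of them were called higher. Of 35 cell cycle genes 0 were called, with a median of 0.025; Mki67 stood at 1.13, 1.16 and 1.29 in wild-type and 0.94 and 1.42 in transgenic replicates. Of 22 genes of antigen presentation H2-DMb1, which edits MHC class II peptides, was called, higher by 0.83 (SE 0.19, adjusted p = 0.0265) in a call lost without wild-type control replicate 3, wild-type replicates 1 or 3 or transgenic replicate 3 and with averaged arrays, and H2-Aa stood at 1.54, 1.71 and 1.55 in wild-type and 1.31 and 1.80 in transgenic replicates with no call. The checkpoint ligand Cd274 differed by 0.19 (SE 0.21, adjusted p = 0.683) and Stat3 at −0.31 (SE 0.20, adjusted p = 0.442).

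The effect of the transgene could be set against its effect in DMEM only, with the difference between both tested as an interaction in the same fit. Of the 725 genes called here 227 were called in the same direction in DMEM only and 29 in the opposite direction; in that medium 1417 genes were called (8.95%), 5.32% lower and 3.63% higher. The interaction was called for 308 genes (1.95%), of which 164 were among the 725. Il10 was lower with tumour material and differed by −0.46 in DMEM only, an interaction of −2.82 (SE 0.30, adjusted p = 0.00079). The interactions for Arg1, Il19, Gipr and Lum were called too (adjusted p = 1.29e-06, 0.00116, 9.37e-05 and 1.29e-06), but these 4 genes were dim on every array of both genotypes in DMEM only, so that no difference could be measured there. Phgdh, Chac1, H2-DMb1 and Lck changed sign: they were lower in transgenic cells in DMEM only, at −1.36, −1.10, −0.82 and −0.86, and higher with tumour material. For Il6 and Egln3 the interaction did not pass (adjusted p = 0.169 and 0.0822). Both were also called lower in transgenic cells in DMEM only (adjusted p = 4.37e-05 and 0.000227). Il6 was there above background on 2 of 4 wild-type and 0 of 3 transgenic arrays, and Egln3 on all 4 wild-type arrays and 1 of 3 transgenic ones. In DMEM only the median of the inflammatory effector list was −0.71, against −0.31 with tumour material, and that of the cytokine list −0.16, against −0.44. Both lists hold genes that were dim in DMEM only, such as Ptgs2 and Il19.

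**Figure D5:**
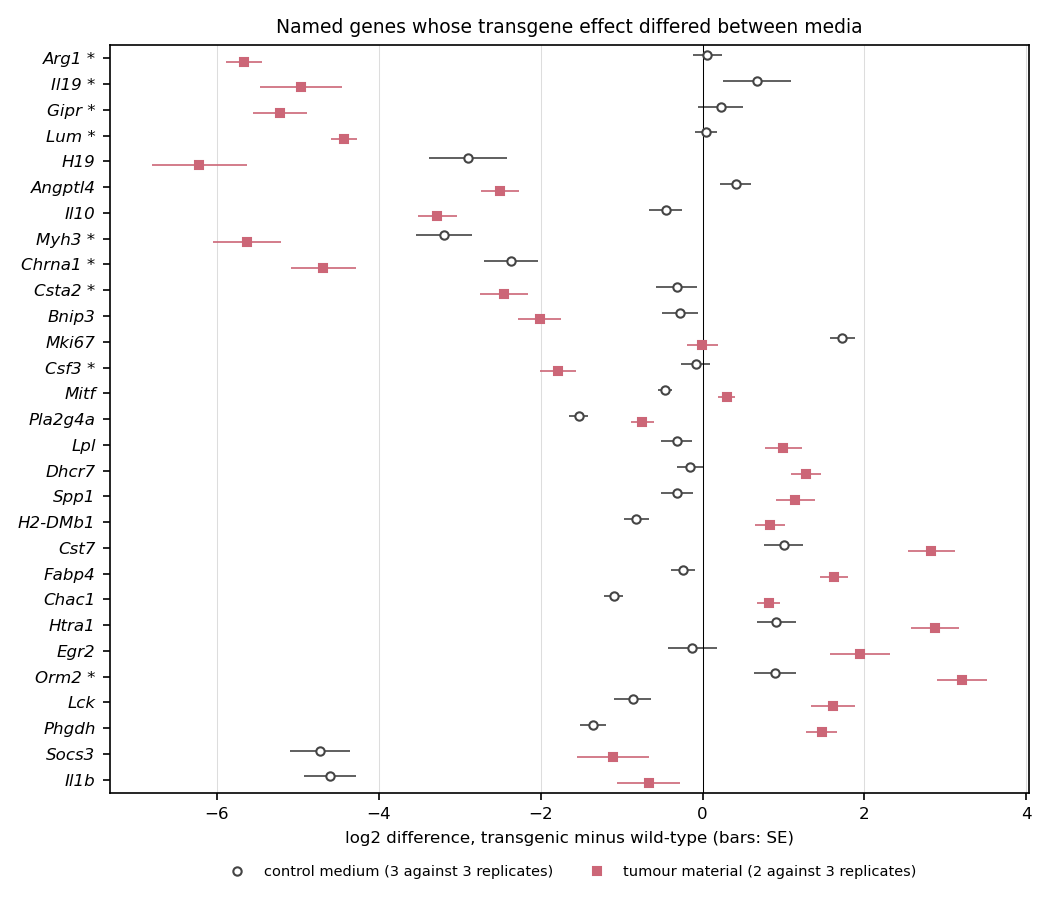
Rows are 29 named genes whose transgene effect differed between media; circles give the log2 difference, transgenic minus wild-type, in DMEM only (3 against 3 replicates) and squares that with tumour material (2 against 3), with bars for the SE. An asterisk marks genes that were dim on every array of at least 1 of the 4 groups, whose values rest on background signal and give no size. Il10, Angptl4 and Bnip3 lie lower with tumour material than in DMEM only, while Il1b and Socs3 lie further below 0 in DMEM only.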

How the data were processed

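Macrophage RNA (200 ng, Cy3) was hybridised to 14 one-colour Agilent mouse arrays on 2 slides. Per the file headers and the submitters' processing notes the authors read them with Agilent Feature Extraction 10.7.3.1, whose deposited intensity is the background-subtracted, spatially detrended gProcessedSignal. The log2 values of the deposited series matrix, used as an alternative, correlated with it at 0.999 on the array where they matched least.

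Control and flagged spots were left out, spots of a probe averaged, and log2 intensity scaled to each array's 75th percentile. Of 55634 probes, 20208 passed the filter (well above background on every array of some group), and the brightest per gene gave 15834 genes, 10971 with a symbol. Symbols came from the accessions in the files through RefSeq. limma 3.58.1 (R 4.3.3) fitted 4 group means and the slide to all 14 arrays, with the arrays of a replicate as a block with correlation 0.0615, so that repeat arrays entered nearly as separate samples; averaging them first was an alternative. The fit had 9 residual degrees of freedom and Benjamini-Hochberg adjusted p-values called at 0.05. The test was run on data simulated for this comparison (15834 genes): 91.3% of 4-fold changes were recovered and 3.8% of calls were false. The simulated noise was independent between genes, with the fitted spread and the same block correlation. It held no uneven arrays or slide columns, so the 3.8% is not the share of false calls in the real data. With 2 replicates against 3, an exact permutation test of a single gene could not go below p = 0.2. P-values measure the spread between these arrays, with repeat arrays of a replicate counted nearly as separate samples.

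The members and lists were chosen with earlier results of these data known. Named were the 12 largest called rises and falls with separated replicates and the same sign within slide 2, up to 6 called members per list, and a set of named genes whatever their values. Gzmb, Csta2, Stfa3, Myog, Mif, Pgk1, Cxcl14 and list members beyond those were named after their values were seen, and the muscle, granzyme and cystatin lists were also gathered then. Alternatives covered normalization, background correction, dim-probe filter, probe choice, slide, repeat arrays, replicate block and each replicate left out. Some named genes are not reported here. The planned normexp correction used median signals with the local background, since mean signals were not used here.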

Additional observations from a re-analysis of the deposited data

Results flagged for a closer look

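The results in this group are 29 named genes whose transgene effect differed between the media, by limma's interaction contrast with Benjamini-Hochberg adjustment over all genes (308 of 15834 called). Values are the effect with tumour material minus the effect in DMEM only, on the log2 scale.

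The effect was more negative with tumour material for H19 (−3.32), Angptl4 (−2.91), Il10 (−2.82), Bnip3 (−1.74) and Mki67 (−1.73). It was more positive for Il1b (3.94), Socs3 (3.62), Phgdh (2.83), Lck (2.47), Egr2 (2.07), Htra1 (1.95), Chac1 (1.91), Fabp4 (1.86), Cst7 (1.83), H2-DMb1 (1.65), Spp1 (1.47), Dhcr7 (1.44), Lpl (1.32), Pla2g4a (0.79) and Mitf (0.76). Il1b and Socs3 were lower in transgenic cells in DMEM only, at −4.60 (SE 0.32, adjusted p = 1.77e-05) and −4.72 (SE 0.37, adjusted p = 2.96e-05), and were not called with tumour material; in DMEM only Il1b was above background on 1 of 3 transgenic arrays. Mki67, a marker of dividing cells, was higher there, by 1.73 (SE 0.16, adjusted p = 8.36e-05), and was not called with tumour material.

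The remaining genes were dim on every array of at least 1 group, so their fitted values rest on background signal there and give no size. Fitted values of this kind were −5.72 for Arg1, −4.48 for Lum, −2.13 for Csta2 and −1.70 for Csf3, which were dim on all arrays in DMEM only. Il19 (−5.63) and Gipr (−5.45) were dim there and on all transgenic arrays with tumour material. Myh3 (−2.44) and Chrna1 (−2.32) were dim on all transgenic arrays with tumour material, and Orm2 (2.31) on all wild-type arrays with tumour material.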

How the results depend on the processing

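The number of genes called depended on the fit more than on the scaling of the arrays. Against 725 called (319 higher, 406 lower, 456 at least 2-fold), there were 668 with quantile normalization and 672 with the deposited series matrix. Normexp on median signals gave 818, of which 241 were at least 2-fold. No filter on dim probes gave 183 higher, and probes above background on all 14 arrays gave 255 lower and 251 at least 2-fold among 13267 tested. No slide term gave 1111 called and 645 lower. Slide 2 alone gave 12 called (5 higher, 7 lower, 12 at least 2-fold), and arrays with tumour material alone 2026 (907, 1119 and 930). Averaging the arrays of a replicate gave 180 (67, 113 and 169), leaving out the repeat array in slide column 4 gave 466 called and 236 lower, and leaving out all 3 repeat arrays 214 (99, 115 and 204). After the data were seen, slide column 4 as a term gave 447 called and 227 lower, and leaving out its arrays 1573 (846 and 727). Calls lower made up 56% of the total, and 46.2% without those arrays.

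Leaving out 1 replicate gave 130 to 2093 called, 48 to 970 higher, 82 to 1123 lower and 120 to 796 at least 2-fold. Where this leaves 1 transgenic replicate, it is assumed to vary like the other groups. Of 87 named genes called, 29 were called in all 11 such fits. Over all settings their differences held their direction and side of the threshold in 1857 of 2318 cases, lost the call in 461 and turned sign in 0. Some named genes not called in the main fit were called under other settings. Among them were Nlrp3 in 6 of 26, Adgre1 in 5 of 27, and Nos2, Gpnmb, Mrc1 and Pparg in 4 of 27. The causes were not tested.

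Replicate numbers were not taken to pair the samples. Same-numbered replicates of both groups correlated at 0.109 (number 2) and 0.00582 (number 3) in their deviations. With 2 transgenic replicates the deviations are equal and opposite, so wild-type replicates 2 and 3 gave −0.109 and −0.00582 with the other number. These values therefore cannot decide if the numbers pair the samples. With the number as a replicate block 540 genes were called (231 higher, 309 lower, 412 at least 2-fold). In simulated data 59.3% of 2-fold changes and 8% of 1.5-fold changes were recovered, so small differences can be missed.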
